A study of Mus musculus with 6 samples.

Results

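The genes described here are 10 immediate early and stress-responsive genes, Fos, Fosb, Fosl2, Jun, Junb, Jund, Atf3, Dusp1, Zfp36 and Btg2. They were taken by symbol from a deposited table of 32801 genes, and all 10 were found. RNA sequencing was done on regulatory T cells (Treg) sorted from thymus at 3 weeks of age, with 3 libraries from the NOD mouse strain, which develops autoimmune diabetes, and 3 from C57BL/6 (B6). All 6 libraries held GFP-negative CD4+CD8- cells that were Thy1.1+. Neither the cells that carry GFP and Thy1.1 nor whether replicates came from separate animals is given in the labels, so p-values measure the spread between these libraries, which may be technical. Libraries are named by the number in their column: NOD libraries 2, 10 and 18, and B6 libraries 4, 12 and 20. Each gene is given by strain and by a division of these numbers, libraries 4, 10 and 12 beside 2, 18 and 20. The labels give the numbers no meaning, the division crosses the strains, and it was proposed with values of these genes known, so it is described with no test.

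AP-1 is a dimeric transcription factor made of a FOS-family protein (FOS, FOSB, FOSL2) paired with a JUN-family protein (JUN, JUNB, JUND), or of JUN proteins alone, joined through leucine zippers. ATF3 is a related zipper protein induced by stress. Transcription of Fos and its relatives starts within minutes of a stimulus that reaches MAP kinases, such as antigen receptor ligation or tissue dissociation, and is soon shut off. DUSP1, a phosphatase of p38, JNK and ERK, ZFP36 (tristetraprolin), which sends AU-rich mRNAs to decay, and BTG2, an antiproliferative partner of the CCR4-NOT deadenylase, are induced by the same signals and limit the response. No library of unsorted cells was analysed here, so what part of any level arose during sorting was not tested.

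Levels are normalized counts, in which reads per gene were scaled by the authors to a common library size and rounded. Estimated depth ran from 15500000 reads (B6 library 20) to 21600000 (NOD library 18), and at that depth counting alone gives an SD of 9.78% at the lowest value of any of the 10 genes (102 for Atf3 in NOD library 2). The Treg gene Foxp3 stood between 1701 and 2446 in every library, and 8 Treg and T cell markers summed to 151320 to 163811 in NOD and 142656 to 158254 in B6. Markers of other cells were lower in sum: 15 dendritic and myeloid genes reached 2179 to 2733 in NOD and 2984 to 3199 in B6, 7 immature thymocyte genes 366 to 497 and 359 to 480, and 5 erythroid genes at most 45. Of 6 B cell genes, Ighm made up most of the sum, which was 5128 to 5602 in NOD and 3580 to 4070 in B6. Ms4a1 was at 10 or less. The 6 thymic epithelium genes summed to 174 to 247 in NOD and 250 to 333 in B6, mostly Epcam, with Foxn1 at 8 or less. Sums can hide strain differences of single genes. In the strain comparison below, Cd8a was called higher in NOD (log2 fold change 2.31) and Rag1 lower (-1.07). Of the T cell markers, Cd3e was called higher (0.77), and of the B cell markers Ighm was called higher (0.49). The call of Cd8a was lost in 1 of 14 alternatives, that of Rag1 in 2 and that of Ighm in 3. Fewer cells of a type and less RNA per cell cannot be told apart in such bulk samples.

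The 180 bases before the RefSeq transcription start (GRCm38.p6, the assembly that mm10 names) are shown for 4 AP-1 genes that varied together between libraries and for 2 early genes that did not follow them. They are written 5′ to 3′ on the gene's strand, and capitals mark TGACG on either strand, which is the first part of the cAMP response element TGACGTCA, and TGACATCA, a variant of it.
Fos (chr12:85473710-85473889, plus strand): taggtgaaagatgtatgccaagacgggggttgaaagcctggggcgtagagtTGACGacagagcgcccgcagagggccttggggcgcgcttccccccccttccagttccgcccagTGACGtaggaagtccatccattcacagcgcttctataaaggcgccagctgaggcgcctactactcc
Fosb (chr7:19310046-19310225, minus strand): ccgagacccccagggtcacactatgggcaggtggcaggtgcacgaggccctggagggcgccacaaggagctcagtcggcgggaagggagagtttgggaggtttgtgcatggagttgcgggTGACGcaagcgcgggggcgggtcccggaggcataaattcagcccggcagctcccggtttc
Jun (chr4:95052223-95052402, minus strand): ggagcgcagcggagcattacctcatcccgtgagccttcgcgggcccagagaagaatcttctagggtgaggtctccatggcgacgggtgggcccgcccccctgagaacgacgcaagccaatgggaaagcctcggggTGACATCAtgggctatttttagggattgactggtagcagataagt
Junb (chr8:84978749-84978928, minus strand): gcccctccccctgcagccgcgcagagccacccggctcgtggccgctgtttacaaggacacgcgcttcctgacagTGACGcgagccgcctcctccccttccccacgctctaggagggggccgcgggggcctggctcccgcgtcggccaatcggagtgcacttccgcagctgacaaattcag
Dusp1 (chr17:26508473-26508652, minus strand): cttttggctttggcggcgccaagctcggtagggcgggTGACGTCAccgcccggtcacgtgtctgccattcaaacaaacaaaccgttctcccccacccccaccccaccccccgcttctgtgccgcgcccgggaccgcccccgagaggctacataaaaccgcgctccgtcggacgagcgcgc
Btg2 (chr1:134079156-134079335, minus strand): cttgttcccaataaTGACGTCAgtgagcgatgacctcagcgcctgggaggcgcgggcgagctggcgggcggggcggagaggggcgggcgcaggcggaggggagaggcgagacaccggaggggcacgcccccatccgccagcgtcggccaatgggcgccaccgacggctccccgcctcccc

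Both strands of the 250 bases before the start were searched in the 10 genes and in 27025 RefSeq genes, using the first start listed for each. That start can differ from the gene intervals given below. For Jund the window ends at 70697738, before the interval that begins at 70698949. The windows of Fosl2, Atf3, Dusp1 and Zfp36 lie inside their intervals. The full element TGACGTCA was present in Dusp1 and Btg2 and in 1.62% of all promoters. Its shorter form TGACG, which overlaps it, was found in 6 of the 10 genes (Fos, Fosb, Junb, Atf3, Dusp1 and Btg2) and in 17.9% of promoters. The variant TGACATCA occurred in Jun (3.02% of promoters) and TTACGTCA in Atf3 (0.48%). The CArG box, the site named for serum response factor, was matched in Zfp36 (1.4%), and the AP-1 element TGAGTCA in 0 of the 10 windows (4.43% of promoters). A match is a string of letters, and a missing match says only that the letters are not in this window.

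Between strains, 0 of the 10 genes were called at an adjusted p below 0.05 with limma-trend, where 9.89% of 16442 tested genes were called (4.59% higher and 5.3% lower in NOD). At an unadjusted p below 0.05 there was 1 of the 10, Dusp1, against 20.3% of all genes. All 10 passed the filter of 10 normalized counts in 3 libraries. Of the 10, 8 had a lower and 2 a higher mean log2 level in NOD, and their median log2 fold change was -0.23 beside 0.01 over all genes tested. The authors' deposited table, from DESeq2, also had 0 of the 10 at an adjusted p below 0.05 (lowest 0.441, for Dusp1), where 9.75% of its genes with an adjusted p were below it.

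Alignment was to mm10, the B6 sequence, and what that does to NOD values of these genes was not tested. The median of all genes moved by less than 0.1 on the log2 scale under every rescaling tried.

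**Figure D1:**
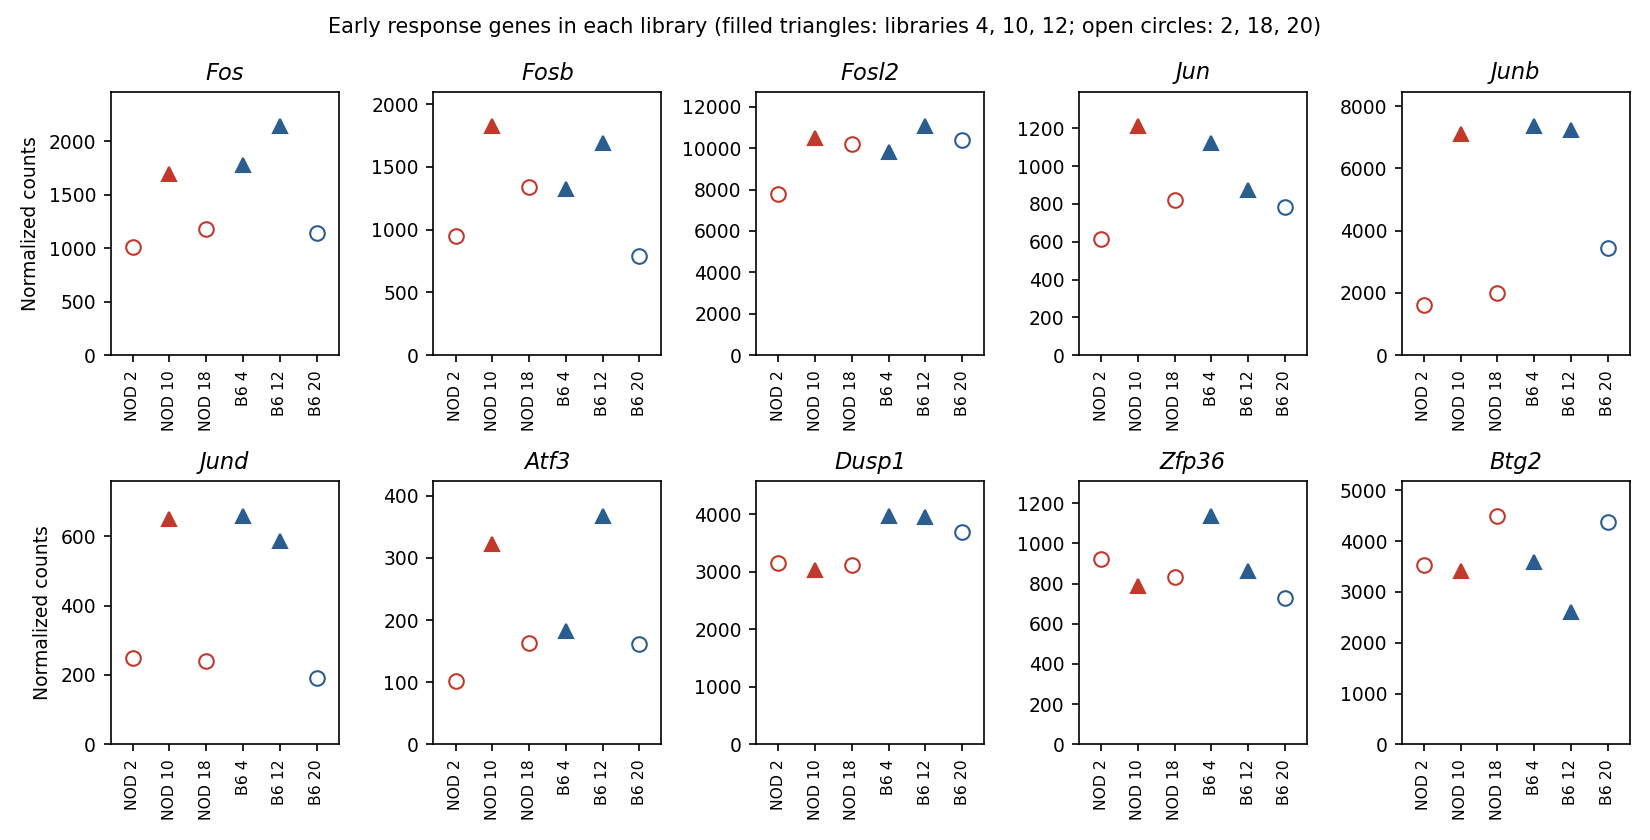
Normalized counts (y axes, from 0) of the 10 genes in each of the 6 libraries (x axes), NOD in red and B6 in blue; each point is 1 library. Junb stands between 7118 and 7355 in libraries 4, 10 and 12 and between 1622 and 3445 in libraries 2, 18 and 20, while Dusp1 stays between 3022 and 3975.

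Fos, the founding AP-1 subunit (chromosome 12, 85473890 to 85477273, mm10), stood at 1012, 1696 and 1185 normalized counts in NOD libraries 2, 10 and 18 and at 1782, 2142 and 1146 in B6 libraries 4, 12 and 20. The strains overlapped, and within each strain the highest library was above the lowest by 1.68 times (NOD) and 1.87 times (B6). NOD averaged 1298 ± 356 and B6 1690 ± 504 (SD over 3 libraries here and below). The log2 difference of -0.37 ± 0.23 (SE here and below) did not pass the test (limma adjusted p = 0.44).

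Fosb, a close relative of Fos (chromosome 7, 19302696 to 19310051), stood at 946, 1824 and 1344 normalized counts in the NOD libraries and 1321, 1689 and 793 in the B6 libraries, in the same order. It had its highest value in NOD library 10 and its lowest in B6 library 20, and the strains overlapped (log2 fold change 0.13 ± 0.27, limma adjusted p = 0.86). Fosl2, the family member with slower and longer expression (chromosome 5, 32135801 to 32157842), was the FOS gene with the most reads. Its values were 7799, 10507 and 10195 in NOD and 9811, 11056 and 10390 in B6, so that NOD library 2 was low and the other 5 lay close together. The log2 fold change was -0.14 ± 0.13 (limma adjusted p = 0.62).

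Of the JUN family, Jun (chromosome 4, 95049034 to 95052222, a single exon) stood at 616, 1210 and 820 normalized counts in NOD libraries 2, 10 and 18 and at 1122, 872 and 785 in B6 libraries 4, 12 and 20. NOD library 10 and B6 library 4 were high. The strain difference was -0.11 ± 0.22 on the log2 scale (limma adjusted p = 0.86).

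Junb, whose protein restrains JUN and takes part in T cell differentiation, varied most. It lies on chromosome 8 (84974484 to 84978718) and stood at 1622, 7118 and 2014 normalized counts in NOD libraries 2, 10 and 18 and at 7355, 7250 and 3445 in B6 libraries 4, 12 and 20. NOD library 10 thus stood close to the 2 highest B6 libraries, and the other 2 NOD libraries were below every B6 library. NOD averaged 3585 ± 3066 and B6 6017 ± 2228, a log2 difference of -0.99 ± 0.46 that did not pass the test (limma adjusted p = 0.26, unadjusted 95% interval -2.01 to 0.03). Without NOD library 10 it was -1.65 ± 0.27 and passed (limma adjusted p = 0.0021), in a range of adjusted p from 0.0021 to 0.64 over all alternatives.

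Jund, the JUN gene usually expressed at a steady level (chromosome 8, 70698949 to 70700616, a single exon), stood at 248, 648 and 240 normalized counts in NOD libraries 2, 10 and 18 and 659, 585 and 191 in B6 libraries 4, 12 and 20. Libraries 4, 10 and 12 were each at 585 or more, and libraries 2, 18 and 20 each at 248 or less. The ratio of the highest to the lowest library was 2.70 in NOD and 3.45 in B6. The strain difference was -0.31 ± 0.46 on the log2 scale (limma adjusted p = 0.80).

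Atf3 (chromosome 1, 191170296 to 191218039) had the lowest values of the 10, at 102, 323 and 163 normalized counts in NOD libraries 2, 10 and 18 and 183, 368 and 161 in B6 libraries 4, 12 and 20. NOD library 10 and B6 library 12 were high, and B6 library 4 was near the low libraries. The strain difference was -0.34 ± 0.39 on the log2 scale (limma adjusted p = 0.73).

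Among the genes that limit the response, Dusp1 differed least between libraries of a strain. It lies on chromosome 17 (26505590 to 26562128) and stood at 3148, 3022 and 3108 normalized counts in NOD libraries 2, 10 and 18 and at 3975, 3955 and 3692 in B6 libraries 4, 12 and 20. It was the 1 gene of the 10 whose strains did not overlap, beside 24.1% of all genes tested. NOD averaged 3093 ± 64.4 and B6 3874 ± 158, a log2 difference of -0.32 ± 0.09 with limma adjusted p = 0.053, just above the threshold (unadjusted 95% interval -0.53 to -0.12). Among the rescalings it passed with total scaling (-0.36, adjusted p = 0.047) and with quantile normalization (-0.35, adjusted p = 0.040), and reached at most 0.28 over all alternatives, with upper quartile scaling.

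Zfp36 (chromosome 7, 28376784 to 28380253) stood at 924, 788 and 831 normalized counts in NOD libraries 2, 10 and 18 and at 1138, 860 and 729 in B6 libraries 4, 12 and 20, a log2 difference of -0.08 ± 0.16 (limma adjusted p = 0.86). Its NOD values lay inside the range of its B6 values. Btg2 (chromosome 1, 134075170 to 134079120) stood at 3526, 3408 and 4504 in NOD and at 3583, 2607 and 4382 in B6. Its highest libraries were NOD 18 and B6 20, which were low for Junb and Jund, and the strain difference was 0.13 ± 0.18 (limma adjusted p = 0.77).

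**Figure D2:**
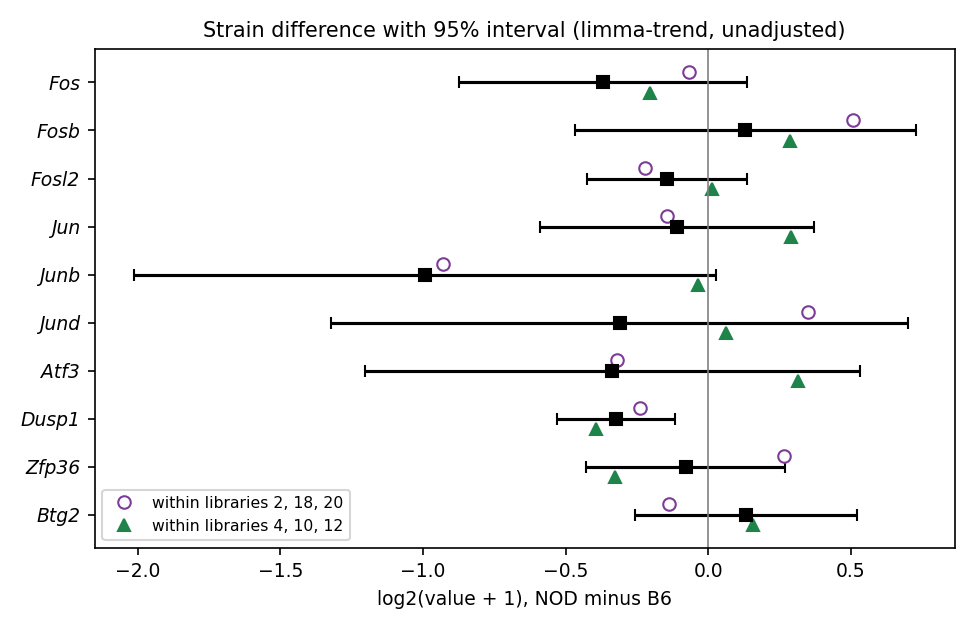
Strain difference of the 10 genes (x axis, NOD minus B6 on the log2(value + 1) scale) with the unadjusted 95% interval of limma-trend (squares and bars), and the same difference inside libraries 2, 18 and 20 (open circles) and inside 4, 10 and 12 (triangles). The interval of Dusp1 runs from -0.53 to -0.12. Both of its partial differences are below 0, as they must be where strains do not overlap.

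The strain difference was also taken inside each set of library numbers, as values with no test, with 2 NOD libraries and 1 B6 library in the set 2, 18 and 20 and 1 NOD and 2 B6 libraries in the set 4, 10 and 12. For Dusp1 it was -0.24 and -0.39 on the log2 scale. The shared sign was fixed in advance, because the strains did not overlap for this gene. For Junb it was -0.93 among libraries 2, 18 and 20 and -0.04 among libraries 4, 10 and 12. Fosb gave 0.51 and 0.29, Fos -0.07 and -0.20, and Jund 0.35 and 0.06. Jun (-0.14 and 0.29), Atf3 (-0.32 and 0.31), Zfp36 (0.27 and -0.33), Btg2 (-0.14 and 0.16) and Fosl2 (-0.22 and 0.01) differed in sign between the sets.

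On a scale of normalized counts per kilobase of merged exons (GENCODE M21), which allows levels to be compared between genes, Junb was highest on average in B6 (2615 ± 968 per kilobase) and in NOD (1558 ± 1333). Btg2 (1390 ± 219 in NOD, 1285 ± 324 in B6), Fosl2 (981 ± 153 and 1076 ± 64.4) and Dusp1 (934 ± 19.4 and 1170 ± 47.7) followed. Fos stood at 552 ± 151 and 719 ± 214. Jun (277 ± 94.6 and 290 ± 54.9), Jund (227 ± 140 and 287 ± 151), Zfp36 (244 ± 20 and 262 ± 60.2) and Fosb (220 ± 70.4 and 203 ± 72.1) were lower and overlapped in mean ± SD in each strain, and Atf3 was lowest (91.0 ± 53 and 110 ± 52.8). In NOD, Junb and Btg2 differed by less than the SD of Junb, and Fosl2 and Dusp1 by less than the SD of Fosl2.

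Between the library-number sets, 5 of the 10 genes (Fos, Jun, Junb, Jund and Atf3) were higher in each of libraries 4, 10 and 12 than in each of 2, 18 and 20, beside 8.89% of all genes tested, and 0 were lower in each, beside 10.1% (19% of genes in either direction). The mean log2 difference (4, 10 and 12 minus 2, 18 and 20) was 1.69 for Junb, 1.48 for Jund, 1.0 for Atf3, 0.74 for Fos, 0.67 for Fosb and 0.53 for Jun. Of 16442 genes ordered by this difference from high to low, Junb stood at place 89 and Jund at 146. The margin was small for Jun (872 in B6 library 12 and 820 in NOD library 18) and for Atf3 (183 in B6 library 4 and 163 in NOD library 18). Fosb overlapped between the sets through 1321 in B6 library 4 and 1344 in NOD library 18.

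The other 4 genes showed no such division. Fosl2 differed by 0.15, Zfp36 by 0.15 and Dusp1 by 0.13 on the log2 scale, and Btg2 by -0.38, the other way. The spread of log2 values inside a strain put Junb, Jund and Atf3 at the 96.7, 96.4 and 93.1 percentiles of all genes tested, and Dusp1 at the 0.864 percentile. Each gene was then centred on its strain mean. The 15 pairs among Fos, Fosb, Jun, Junb, Jund and Atf3 gave a Pearson r from 0.67 to 0.99 over the 6 libraries (median 0.88). The highest was Fos with Fosb and the lowest Jun with Atf3. Fosl2 gave from 0.31 (Jund) to 0.81 (Atf3) with these 6 genes, and 0.56 with Fos. Fos gave 0.36 with Dusp1, 0.22 with Zfp36 and -0.73 with Btg2. These r share the same 6 libraries and size factors and are descriptions.

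Depth overlapped between the sets (16800000 to 18100000 estimated reads in libraries 4, 10 and 12 and 15500000 to 21600000 in the others). The share of normalized counts from mitochondrial genes was 6.51%, 2.08% and 2.62% in libraries 4, 10 and 12 and 6.62%, 9.28% and 7.61% in libraries 2, 18 and 20. Transcript GC content also moved with the division. The median log2 difference over all genes went from -0.16 in the tenth of genes with the lowest GC content to 0.24 in the tenth with the highest, where 24.1% of genes were higher in each of libraries 4, 10 and 12. Junb (62.6% GC) and Jund (67.1%) are at the 99.0 and 99.9 percentiles of GC content, and Fos (51.9%) and Atf3 (52.2%) at the 66.5 and 67.9 percentiles. When each library was centred by GC decile, an alternative added after seeing the data, the difference was 1.45 for Junb, 1.24 for Jund, 0.97 for Atf3 and 0.71 for Fos. With that centring 4 of the 10 genes were higher in each library of the set, without Jun, beside 8.44% of genes. The part that mitochondrial share has in the division was not tested.

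**Figure D3:**
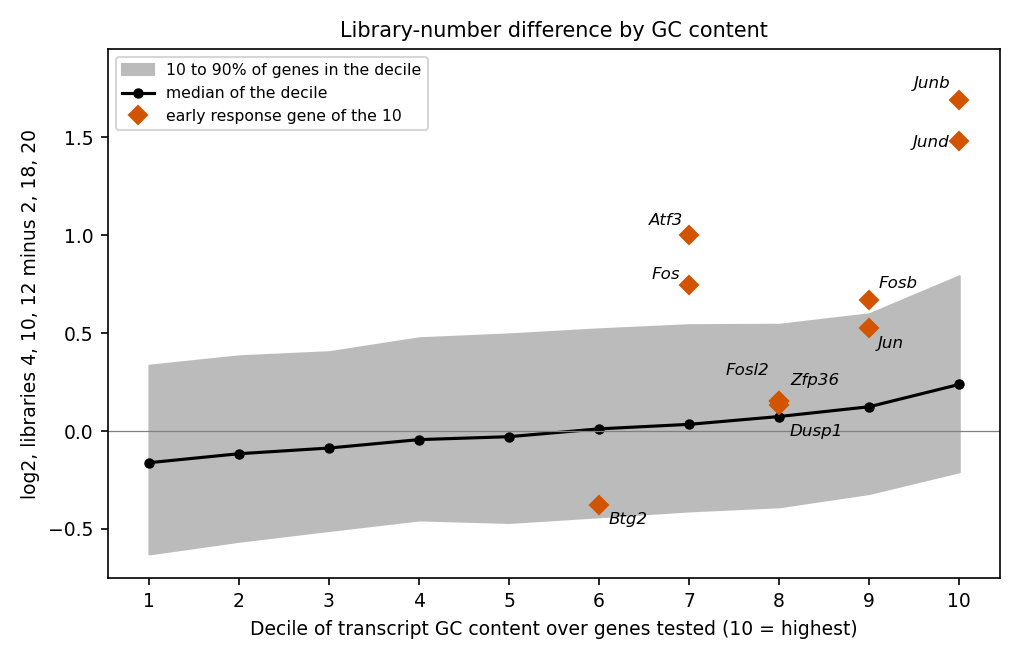
Log2 difference between library sets (y axis, mean of libraries 4, 10 and 12 minus mean of 2, 18 and 20) against the decile of transcript GC content (x axis); the line is the median of all tested genes in a decile, the band their 10 to 90% range, and diamonds are the 10 genes. Junb and Jund, in the top decile, stand at 1.69 and 1.48 where the decile's median is 0.24 and its 90% bound 0.79.

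Some of the 10 genes overlap others, and the strand setting of the counting is not given in the sources used here. Junb shares 173 exonic bases with Prdx2 on the opposite strand. Prdx2 stood at 1195, 1107 and 1359 normalized counts in NOD and 1223, 1450 and 1746 in B6. The part of its reads in the Junb values was not tested. Jun shares 232 bases with Junos, at 46 or less, Zfp36 shares 125 with Gm44710, at 12 or less, and Dusp1 shares 11 with Ergic1. Jund shares 877 bases with the antisense gene Gm11175, whose level was not analysed here.

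Other early response genes were divided by library number in the same direction. Of 35 tested, 14 (40%) were higher in each of libraries 4, 10 and 12, beside 8.89% of all genes, and 0 were lower in each, beside 10.1%. With GC centring 12 were higher in each, beside 8.44%. Their median log2 difference between the sets, without that centring, was 0.33 beside 0.00 over all genes. Gadd45g, a stress-induced regulator of p38 signalling, stood at 129, 116 and 121 normalized counts in libraries 10, 4 and 12 and at 41, 34 and 63 in libraries 2, 18 and 20. Gadd45b stood at 3246, 2564 and 2979 and at 1724, 1419 and 1748, and Csrnp1, a nuclear protein induced by AXIN, at 4377, 4569 and 5032 and at 2367, 2758 and 2938. Socs3, a feedback inhibitor of cytokine signalling, stood at 2584, 1534 and 2220 and at 1281, 1422 and 1164. These 4 genes were chosen after their values were seen. Egr1, which shares its regulation by serum response factor with Fos, overlapped between the sets, at 107, 134 and 116 and at 103, 174 and 101.

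**Figure D4:**
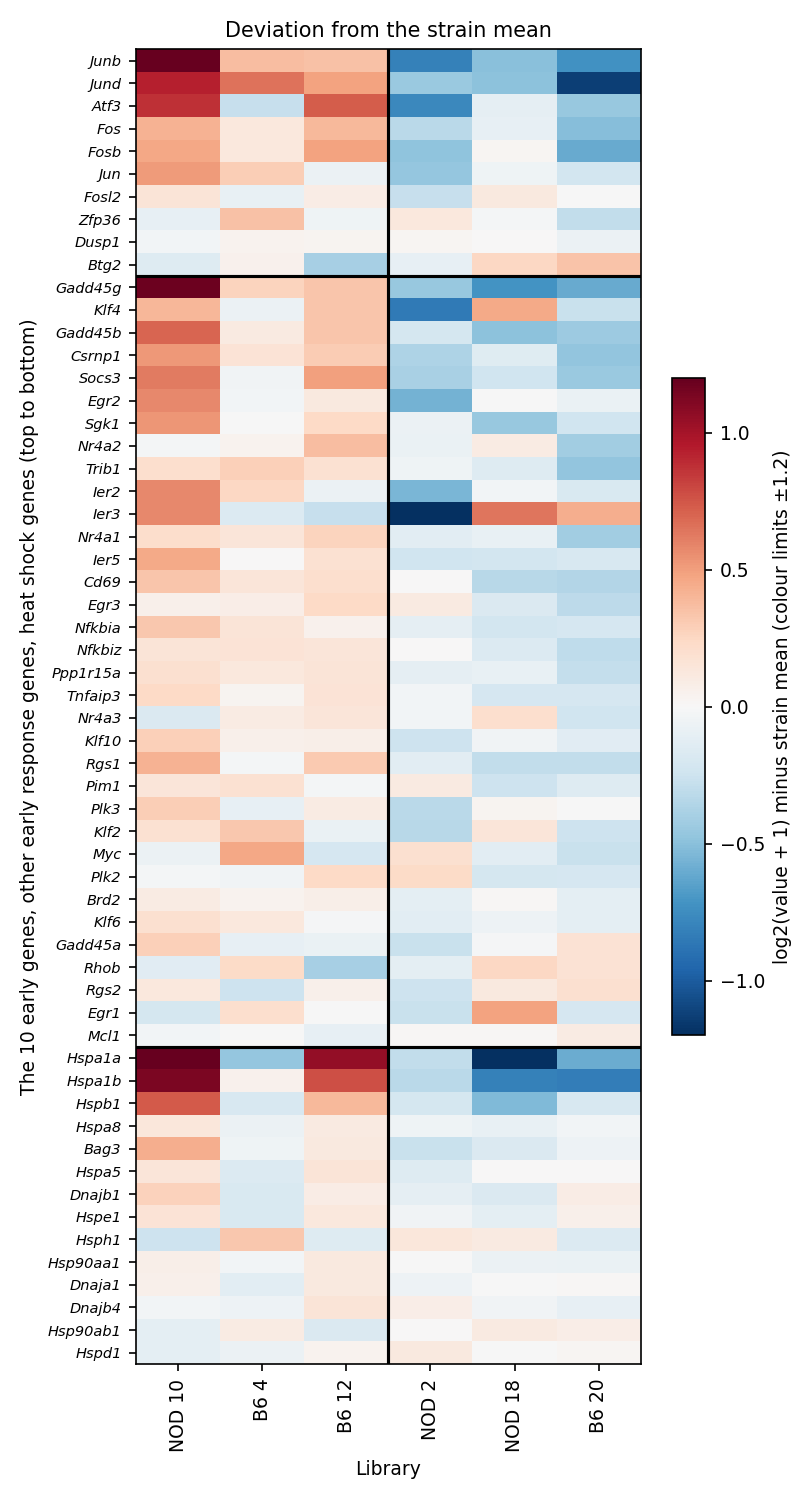
Deviation of log2(value + 1) from the strain mean (colour) for the 10 genes, the other early response genes but 1 and 14 heat shock genes (rows, ordered within each block by the difference between library sets) in the 6 libraries (columns, with 4, 10 and 12 at the left). The colour scale stops at 1.2; Junb in NOD library 10 lies beyond it at 1.32.

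By strain, 3 of the 35 early response genes rose and 4 fell in NOD with limma-trend (20% called, beside 9.89% of all genes). Klf4, a Krüppel-like factor that restrains T cell proliferation, stood at 149, 355 and 370 normalized counts in NOD and 928, 1225 and 809 in B6 (log2 fold change -1.85 ± 0.30, limma adjusted p = 0.0019). The nuclear receptor genes Nr4a2 (-1.04) and Nr4a3 (-0.78) fell as well, and these 3 calls were kept in all 14 alternatives. The small GTPase gene Rhob fell by 0.70, a call that did not hold when library 2 or 10 of NOD or 4 or 20 of B6 was omitted. Rgs1, which damps chemokine receptor signalling, rose by 0.78 on the log2 scale and the survival gene Mcl1 by 0.35. The call of Mcl1 was lost in 9 of 14 alternatives (limma adjusted p up to 0.23, with upper quartile scaling), and that of Rgs1 in 4 (up to 0.15, with no trend). The count of genes that fell was 8 without NOD library 10. The count that rose was 1 when library 18 of NOD, or 12 or 20 of B6, was omitted, and 0 without B6 library 4. It was also 0 with no trend on all 6 libraries.

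Heat shock genes, which respond to protein damage, held 1 strain call among 14 (7.1%, beside 9.89% of all genes). In this list 2 genes were higher in each of libraries 4, 10 and 12 (14.3%, beside 8.89% of all genes). Hspa1b stood at 171, 180 and 298 normalized counts in libraries 10, 4 and 12 and at 62, 44 and 97 in libraries 2, 18 and 20, and its near-identical copy Hspa1a at 80, 46 and 134 and at 22, 11 and 42, so reads of both may be shared. The list's median difference between the sets was 0.06. Hspa8, the constitutive chaperone, fell in NOD, at 20220, 23124 and 19759 against 37600, 42609 and 38726 in B6 (-0.92 ± 0.12, limma adjusted p = 0.00033). Hspa8 has processed copies, so its reads may be split among them. Without NOD library 10, 3 of the 14 fell.

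Of 21 other AP-1 and zipper protein genes, 0 rose and 3 fell in NOD (14.3% called, beside 9.89% of all genes). Jdp2, which encodes an AP-1 repressor, stood at 202, 208 and 180 normalized counts in NOD and 366, 309 and 353 in B6 (log2 fold change -0.80 ± 0.15, limma adjusted p = 0.0053). Nfe2l2, the oxidative stress regulator NRF2 (-0.67), and Atf6, a sensor of the unfolded protein response (-0.57), also fell. Leaving out NOD library 18 or B6 library 4 ended the call of Atf6 (limma adjusted p = 0.053 and 0.058), and with no trend both Nfe2l2 (limma adjusted p = 0.0505) and Atf6 (0.061) missed the threshold. Batf, the AP-1 partner of JUN proteins in effector Treg, stood at 1485, 1034 and 1112 in libraries 10, 4 and 12 and at 1338, 1132 and 1305 in the others, without a division. Fosl1, the remaining FOS gene, was at 15 to 48. Of these 21 genes, 5 were higher in each of libraries 4, 10 and 12 (23.8%, beside 8.89% of all genes), among them Mafk, Mafg and Nfil3. Atf2 was the 1 gene lower in each, beside 10.1% of all genes. Mafk, Mafg, Nfil3 and Atf2 were named after their values were seen.

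**Figure D5:**
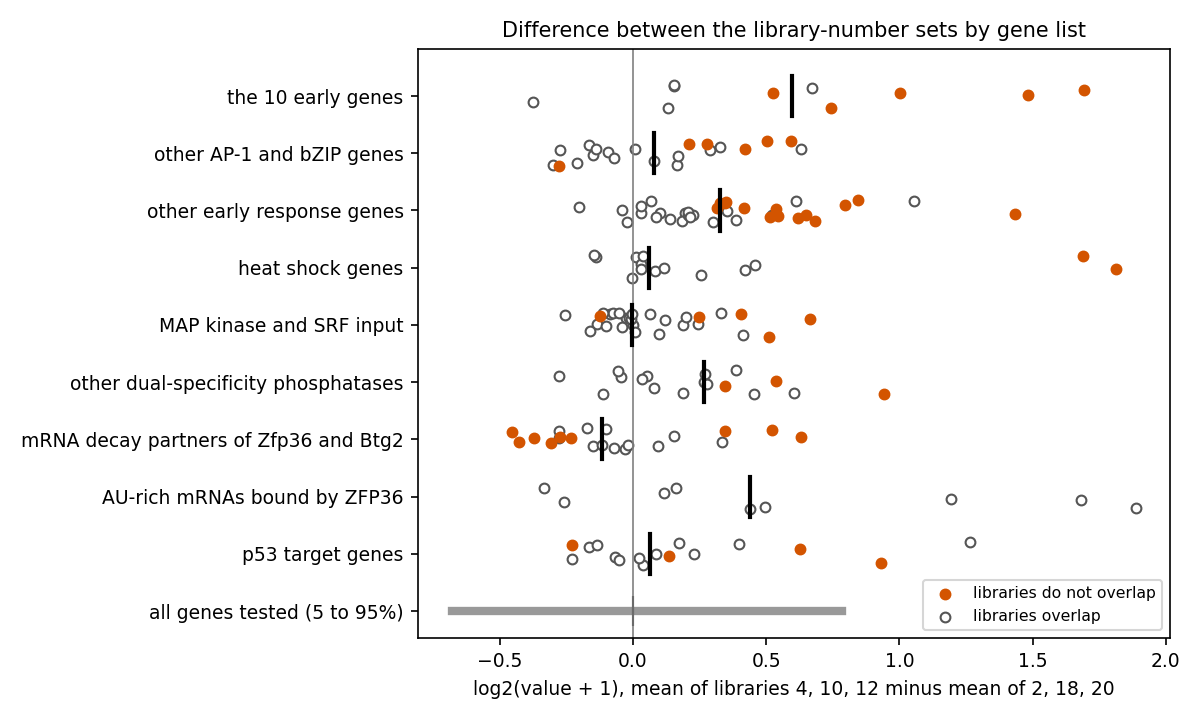
Log2 difference between library sets (x axis, mean of libraries 4, 10 and 12 minus mean of 2, 18 and 20) of each tested gene (points) by gene list (rows); filled points are genes whose sets do not overlap, black lines are list medians, and the grey bar spans 5 to 95% of all genes tested. The medians are 0.60 for the 10 genes, 0.33 for the other early response genes and 0.00 for the 28 genes of MAP kinase and serum response factor input.

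The MAP kinases and serum response factor, which carry the signal to these promoters, held 2 higher and 1 lower call among 28 genes. That was 10.7%, beside 9.89% of all genes. Elk3, a partner of serum response factor, rose by 0.61 and the JNK gene Mapk9 by 0.46, and the coactivator gene Mkl1 fell by 0.37 on the log2 scale. The call of Elk3 was lost with no trend (limma adjusted p = 0.056). Mapk9 was not called when library 18 of NOD, or 4 or 12 of B6, was omitted. Its call was also lost with no trend and with upper quartile scaling. Mkl1, fitted in 13 alternatives, lost its call in 8, and among the omissions of 1 library it was called only without NOD library 10. Srf was higher in each of libraries 4, 10 and 12 (1136, 791 and 857 normalized counts in 10, 4 and 12, and 614, 779 and 692 in 2, 18 and 20). Of 17 other dual-specificity phosphatases, 0 were called in NOD against B6 with limma-trend. An unadjusted p below 0.05, held by 20.3% of all genes, was reached by 5 of these phosphatases. Without NOD library 10, 2 of them were lower, and 1 was lower with quantile normalization, with no trend and with GC centring. Dusp5, an ERK phosphatase, was higher in each of libraries 4, 10 and 12 (6505, 7024 and 7159 against 5004, 5123 and 6239).

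Around Zfp36 and Btg2, 1 of 21 genes of mRNA decay was called (4.8%, beside 9.89% of all genes). Zc3h12d, which encodes an RNase of the Regnase family, rose in NOD (4592, 5492 and 5008 against 3505, 3206 and 3111, log2 fold change 0.62 ± 0.11, limma adjusted p = 0.0028). The paralogs Zfp36l1 (-0.33) and Zfp36l2 (0.26) did not pass the test, nor did Btg1 (0.13). In this list 6 of the 21 genes were lower in each of libraries 4, 10 and 12, beside 10.1% of all genes. Cnot6l, a CCR4-NOT deadenylase, was among them. Another 3 were higher in each (14.3%, beside 8.89% of all genes). Of 16 p53 target genes, to which Btg2 also belongs, 1 was called (6.2%, beside 9.89% of all genes). It was the death receptor gene Tnfrsf10b, which fell (-0.68), a call lost without NOD library 2, NOD library 18 or B6 library 12. Cdkn1a, the best known p53 target, stood at 215, 284 and 232 in NOD and 254, 146 and 195 in B6 (limma adjusted p = 0.48).

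Of 13 listed AU-rich mRNAs bound by ZFP36, 9 were tested. In NOD 4 fell (44.4% of those tested, beside 9.89% of all genes called and 5.3% lower) and 0 rose. All 4 calls were kept in every alternative. Il6, Ptgs2 and Ccl3 reached the filter of 10 normalized counts in 3 libraries only through their high B6 values. The count of falls therefore cannot be read as a result about ZFP36 targets. The cytokine gene Il6 stood at 0, 1 and 1 normalized counts in NOD and 73, 125 and 281 in B6. Ccl3, a chemokine gene, stood at 1, 12 and 2 against 47, 57 and 118, Cxcl2 at 16, 36 and 26 against 162, 178 and 195, and Ptgs2, which encodes cyclooxygenase 2, at 9, 9 and 8 against 42, 40 and 69. Tnf, the classic target (130, 133 and 120 against 164, 166 and 181), and Il10 (1096, 1948 and 1251 against 1170, 1475 and 983) did not pass the test. Myeloid and stromal cells also express these 4 genes. Of 11 tested dendritic and myeloid markers 4 were lower in NOD (36.4%, beside 9.89% of all genes called and 5.3% lower). The call of Cd74 (log2 fold change -1.06) was kept in all 14 alternatives. Those of Tyrobp, H2-Aa and Zbtb46 were lost in 7, 6 and 6 of them. Tyrobp stood at 5, 3 and 13 against 26, 18 and 44, so it too reached the filter only through its B6 values. The count of lower markers therefore cannot be read as a result about myeloid cells. Fcer1g, which missed the filter and was not tested, stood at 3, 5 and 4 against 6, 11 and 25. The part of myeloid and stromal cells in the 4 differences of AU-rich mRNAs was not tested.

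The genes whose strain-centred profile over the 6 libraries was most like the median profile of the 10 genes were Paxbp1, Traf4, Arhgap26, Qprt, Insig1, Arid5a, Ptprs, Dpp9, Zbtb21 and Nle1, with a Pearson r from 0.993 to 0.999. They were taken among tested genes above 100 normalized counts. Qprt, an enzyme of NAD synthesis, spanned 1.19 and Dpp9, a dipeptidyl peptidase, 0.25 on the log2 scale between their lowest and highest deviation, beside 2.13 for Junb in NOD alone. These r are descriptions over 6 libraries that share their size factors.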

How the data were processed

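RNA was measured in 3 NOD and 3 B6 libraries, made per the labels' protocols with a TruSeq total RNA kit. The submitters' processing notes name Trimmomatic, STAR, DESeq2 and mm10; for the counter, annotation and strandedness nothing is given in the sources used here. Per the file headers, the 6 sample columns hold normalized values, treated as scores: reads per gene over a size factor set by the authors, rounded. The deposited table also holds the authors' log2 fold changes and their p-values. Columns were matched to strain by name and carry no replicate number of the labels.

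Genes that reached 10 normalized counts in 3 or more libraries (2 in fits that omit a library) were fitted with limma 3.58.1 in R 4.3.3 on log2(value + 1), strain as the only term, with a trend, Benjamini-Hochberg adjustment over 16442 genes and two-sided tests. The scale understates changes of low genes. Depth was estimated from the gaps that rounding left; the fit and that estimate were tested on simulated data. Members and lists were chosen with earlier results of these data known. Named genes are the 10, up to 3 called genes per direction and list, the 10 most alike in profile, and markers; exceptions are stated, and 2 genes of the lists are counted but not reported here by name. Alternatives were another pseudocount, no filter, 3 rescalings, no trend, each library left out and, added later, GC centring and a block of neighbouring column numbers.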

Additional observations from a re-analysis of the deposited data

How the results depend on the processing

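Of the 10 genes, 1 was called lower in NOD with total scaling (Dusp1), 1 with quantile normalization (Dusp1) and 1 without NOD library 10 (Junb), so the count lower ranged from 0 to 1 when a library was left out; 0 were called higher in any alternative. Over the 8 other lists together, 6 genes were called higher and 14 lower; the count higher was 1 with no trend and ranged from 2 to 7, and the count lower from 11 to 25, when a library was left out. The count of the 10 genes higher in each of libraries 4, 10 and 12 stayed within 1.5 times of 5 under every rescaling and was 4 with GC centring. When a library was left out, the strain difference of 6 genes, none of them called, took both signs. It ran from -0.37 (without NOD library 10) to 0.12 (without NOD library 2) for Jun, which was also 0.04 without B6 library 4. It ran from -0.77 (without NOD library 10) to 0.052 (without NOD library 2) for Atf3, with 0.03 without B6 library 12, and from -0.17 (without B6 library 20) to 0.37 (without NOD library 2) for Fosb, with -0.10 without NOD library 10. The range was -0.88 to 0.015 for Jund and -0.23 to 0.095 for Zfp36 (each without B6 library 20 and without B6 library 4), and -0.067 to 0.31 for Btg2 (without B6 library 12 and without B6 library 20). Fos, Fosl2, Junb and Dusp1 kept their sign in all 14 alternatives. The cause was not tested. The columns carry none of the replicate numbers of the labels. The column numbers step alike in both strains, so a replicate block of neighbouring numbers (2 with 4, 10 with 12 and 18 with 20), a pairing that no label gives, was added after seeing the data. Strain-centred deviations of all genes correlated by 0.007, 0.18 and 0.127 in these pairs, and library 2 correlated better with 20 (0.098) than with 4, so these values do not establish the pairing. With the block, 2 of the 10 genes were called lower, Junb (limma adjusted p = 0.0285) and Dusp1 (0.0353), and 2027 of all genes were called in place of 1626. Read depth gives a counting SD of at most 9.78% for any value of the 10 genes.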

Other observations

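The authors' deposited table gives a mean per gene that does not rest on these 6 columns alone. For Fos it is 4894, which is 3.28 times the mean of the 6 libraries (1494), and for Jun 2531, or 2.80 times 904. Zfp36 (2.09 times), Fosb (1.99) and Btg2 (1.55) were also higher in the deposited mean, while Fosl2 was lower, at 4944 or 0.496 times 9960. The median of this ratio over 16442 tested genes was 1.004, with 5 to 95% of genes between 0.591 and 1.76, and Fos and Jun stood at the 99.5 and 99.2 percentiles and Fosl2 at the 2.33 percentile. Junb (0.858) and Jund (0.820) were lower in the deposited mean, and Atf3 (1.32) and Dusp1 (1.27) higher, all inside that 5 to 95% range. Which libraries entered that mean is not stated in the sources used here.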
